A study of Mus musculus with 12 samples.

Results

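The nuclear genes for subunits and assembly factors of mitochondrial complex I were examined in LSD1 and H3K4me2 ChIP-seq peak lists from mouse liver. Members were the protein-coding genes of GENCODE mouse release 21 (mm10) whose symbol begins with Nduf, and there were 46 of them among 21853 protein-coding genes. By known role they were 7 core subunits, 29 accessory subunits, 8 assembly factors and 2 others, Ndufa4 and Ndufa4l2, which carry the name but are not counted here as complex I subunits. A promoter was the sequence within 1 kb on either side of any transcription start site (TSS) of a protein-coding transcript.

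The series holds 12 mouse liver libraries of strain C57BL/6. LSD1 was precipitated from the liver of wild type mice, and H3K4me2 from the liver of GFP control and LSD1-LKO mice, each with 2 ChIP and 2 control libraries. Both H3K4me2 groups carried the floxed LSD1 alleles (LSD1 fl/fl), and as adults they received an AAV8 vector with the hepatocyte-specific TBG promoter, which drove GFP in controls and Cre in LSD1-LKO, so that LSD1 in the other liver cells was not targeted. The general methods describe injection of young adult mice and a high-fat diet afterwards, and neither the labels nor the methods for ChIP-seq say whether the ChIP mice were handled in that way. The labels call the control libraries input, and the methods call them IgG.

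Complex I oxidizes NADH, passes the electrons through a flavin and a chain of iron-sulfur clusters to ubiquinone, and pumps protons across the inner mitochondrial membrane. Its matrix arm carries the redox centers, and its membrane arm carries the proton channels, whose core proteins are encoded by mitochondrial DNA and are therefore not among the Nduf genes. Accessory subunits surround this core, and assembly factors help to build the complex without remaining in it. H3K4me2 is a histone mark of active promoters and enhancers, and LSD1 (Kdm1a) is a demethylase that removes methyl groups from mono- and dimethylated H3K4 and, in some settings, H3K9.

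Each listed entry is a peak of the first-listed library that overlaps a peak of the second-listed library of the same group. A peak called in only 1 library is not listed, so a promoter without an entry may still have had such a peak. Read depth is unknown, no value for an animal can be formed, and an exact permutation test of 2 against 2 libraries cannot go below p = 0.333, so the differences below are descriptions without a test. Kdm1a itself had no H3K4me2 promoter peak in the control list and covered lengths of 910 and 1805 bp in the LSD1-LKO list, which does not check the deletion. Control H3K4me2 promoter peaks were listed at 8 of 10 hepatocyte genes and LSD1-LKO peaks at 10 of 10. Their median covered length, the number of promoter bases under listed peaks, went from 1319 to 651 bp between the first-listed control and LSD1-LKO libraries and from 1869.5 to 1390 bp between the second-listed ones. For genes of other liver cells the counts were 1 and 2 of 10, Epcam in both lists and Lrat in LSD1-LKO, and for genes of other tissues 0 and 0 of 6. Alb, the gene of serum albumin and a defining hepatocyte marker, had no control entry. Cps1 had none by the first-listed intervals, though 1375 bp were covered in the second-listed control library. The part of these marker values in the complex I results was not tested.

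The sequences under the LSD1 peaks are shown for 3 members because they hold the highest ranking LSD1 promoter peak, the highest ranking one of a core subunit and the highest ranking one centered upstream of the gene. They are the stretch shared by the LSD1 intervals of both libraries outside annotated exons, at most 300 bases from its middle, read 5′ to 3′ on the strand of the gene from GRCm38. The Ndufs4 stretch lies in an intron (chr13:114387584-114387883, minus strand, 64.0% GC, 20 CpGs). The Ndufv2 stretch lies in an intron as well (chr17:66101207-66101414, minus strand, 72.6% GC, 24 CpGs). The Ndufa9 stretch lies upstream of the gene (chr6:126849137-126849308, minus strand, 51.7% GC, 7 CpGs). None of the motifs named below lies in these 3 stretches, so they hold no capitals.
Ndufs4: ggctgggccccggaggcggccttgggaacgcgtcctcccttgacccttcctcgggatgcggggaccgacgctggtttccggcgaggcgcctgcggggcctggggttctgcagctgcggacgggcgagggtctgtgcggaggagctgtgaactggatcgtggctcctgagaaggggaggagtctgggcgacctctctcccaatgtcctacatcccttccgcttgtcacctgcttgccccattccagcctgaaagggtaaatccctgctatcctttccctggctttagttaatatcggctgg
Ndufv2: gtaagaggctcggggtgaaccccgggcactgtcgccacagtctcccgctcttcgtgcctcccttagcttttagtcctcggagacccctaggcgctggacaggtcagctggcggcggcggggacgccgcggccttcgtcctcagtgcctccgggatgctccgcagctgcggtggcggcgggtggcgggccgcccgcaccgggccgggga
Ndufa9: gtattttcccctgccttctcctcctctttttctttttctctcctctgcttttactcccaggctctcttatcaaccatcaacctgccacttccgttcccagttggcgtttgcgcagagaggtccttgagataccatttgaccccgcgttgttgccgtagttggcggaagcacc

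Motifs of 4 transcription factors known at promoters of respiratory genes were searched on both strands in the window from 250 bases before to 50 bases from the most upstream TSS. The letters were GCGCATGC for NRF1, CCGGAAG for GABP, AAGGTCA for ERR and ATGGCGG for YY1, and the NRF1 letters overlap their own reverse complement by all but a pair of bases. At least 1 of them was found in 19 of 46 member windows (41.3%), in 28.0% of windows of genes with H3K4me2 in either list and in 21.3% of windows of all protein-coding genes. YY1 letters stood in 7 member windows (15.2%, against 7.11% of genes with H3K4me2), ERR letters in 4 (8.70%, against 3.31%), NRF1 letters in 4 (8.70%, against 4.88%) and GABP letters in 8 (17.4%, against 16.3%). Of the 21 members with an LSD1 promoter peak 9 held a motif, as did 10 of the 25 without.

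An NRF1 site is shown for each of the 4 members that hold one because the factor is named for nuclear respiratory genes. The sites also occur at promoters with and without an LSD1 peak. Each line gives 30 bases of the strand of the gene around the match, with the matched letters of both orientations in capitals. Ndufa11 (chr17:56717691-56717720, plus strand), Ndufa6 (chr15:82354356-82354385, minus strand) and Ndufaf5 (chr2:140170651-140170680, plus strand) had an LSD1 promoter peak. The sites shown for Ndufa11 and Ndufaf5 lay within the LSD1 intervals of both libraries, and that of Ndufa6 lay outside both. Ndufaf4 (chr4:24897959-24897988, plus strand) had none.
Ndufa11: acctgcactgcGCGCATGCGCgcacgcctt
Ndufa6: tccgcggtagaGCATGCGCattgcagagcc
Ndufaf5: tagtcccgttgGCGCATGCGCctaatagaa
Ndufaf4: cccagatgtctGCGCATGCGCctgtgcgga

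The matches shown for Ndufa11, Ndufaf5 and Ndufaf4 hold the letters in both orientations, and that of Ndufa6 in the reverse one. The match shown for Ndufaf5 begins 13 bases after the TSS, and those shown for the other members begin 65, 52 and 113 bases before it in Ndufa11, Ndufa6 and Ndufaf4. Ndufaf4 holds a further match in the forward orientation only, which begins 1 base after the TSS and is not shown. The median GC content of the member windows was 57.7%, against 60% in genes with H3K4me2 and 55.3% in all protein-coding genes. The median ratio of observed to expected CpGs was 0.804 in members, 0.737 in genes with H3K4me2 and 0.537 in all protein-coding genes.

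LSD1 was listed at the promoters of 21 of 46 members (45.7%). The share was 23.6% in all 21853 protein-coding genes and 37.6% in the 13553 genes with an H3K4me2 promoter peak in either list, which are called marked genes here. The difference depended on the peak threshold. At the p-value of 0.01 named in the methods, required in both libraries, 18 members (39.1%) and 34.7% of marked genes kept a peak. The peaks of Ndufs1, Ndufb8 and Ndufb9 did not reach it. When both libraries had to reach a p-value of 1e-05, 5 members (10.9%) and 10.05% of marked genes kept a peak. When both had to reach a q-value of 0.05, 6 members (13.04%) and 11.4% of marked genes did. Every member with an LSD1 peak had 1 such peak.

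The LSD1 peaks of members had a lower median rank than those of other promoters. Rank is the percentile of a peak among all entries of the LSD1 list when these are ordered by −log10 p-value averaged over both libraries, and its median was 52.0 in the 21 members against 70.9 in the 5040 LSD1 promoter peaks of marked genes. The median fold enrichment, the ratio of the ChIP signal at the summit to the local control signal, was 3.005 in the first-listed and 3.20 in the second-listed library, against 3.32 and 3.55 at marked promoters. The median width was 401 bp against 529 bp. The peak centers of 18 of 21 members lay within 300 bp of a TSS. Of all 21 centers 10 lay upstream and 11 downstream of the nearest TSS, and 14 of the peaks covered that TSS. By the annotation of the gene itself 7 centers lay in a UTR, 6 upstream, 4 in an intron, 2 in a coding exon and 2 in a non-coding exon.

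**Figure D1:**
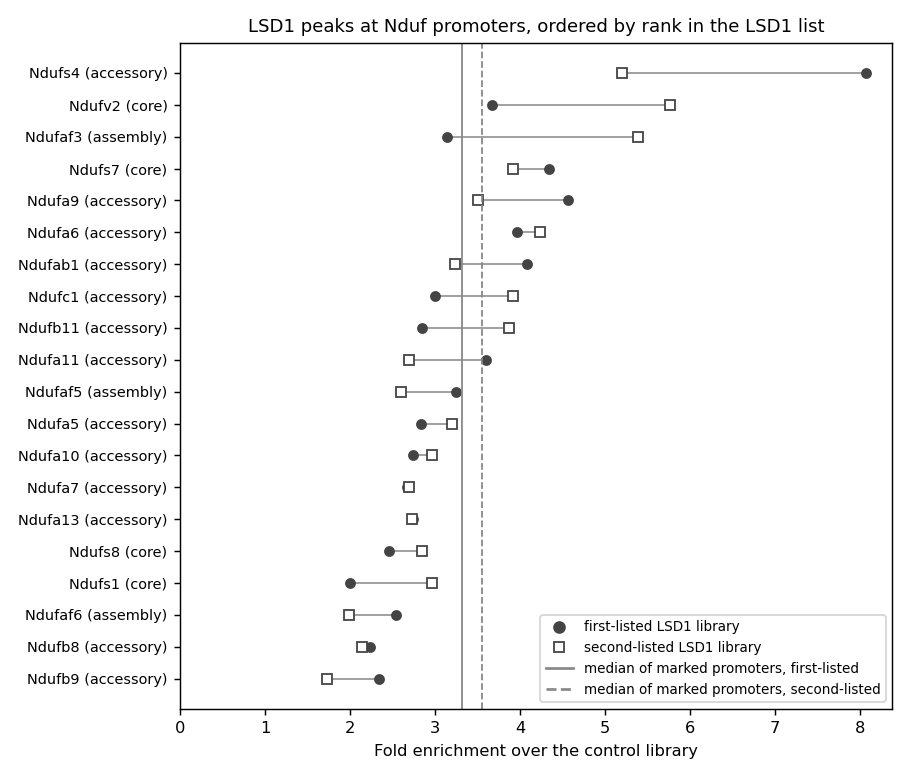
Fold enrichment of the LSD1 promoter peak over the control library (horizontal axis, a ratio) in the first-listed (filled circles) and second-listed library (open squares) for 20 of the 21 members with a peak, ordered by rank in the LSD1 list. Vertical lines mark the medians of marked promoters (3.32 and 3.55), and both libraries lie above them for Ndufs4, Ndufv2, Ndufs7 and Ndufa6.

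Among the core subunits 5 of 7 had an LSD1 promoter peak. Ndufv2, an iron-sulfur protein next to the NADH-oxidizing site, had a fold enrichment of 3.67 and 5.77 at rank 92.8. Ndufs7, which holds the last iron-sulfur cluster before ubiquinone, followed with 4.34 and 3.92 at rank 85.2. The peaks of Ndufs8, another iron-sulfur subunit, and Ndufs1, the largest subunit of the matrix arm and an iron-sulfur protein too, were weaker. Their values were 2.46 and 2.85 at rank 30.7 for Ndufs8 and 2.00 and 2.96 at rank 30.2 for Ndufs1. No LSD1 promoter peak was listed at Ndufv1, which binds the flavin and NADH, or at Ndufs3.

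Accessory subunits had an LSD1 promoter peak in 13 of 29 genes. Ndufs4, whose loss causes a fatal encephalopathy in mice, had the highest ranking peak of all members, at rank 99.4 with a fold enrichment of 8.07 and 5.20 over 949 bp (chr13:114387349-114388297). Ndufa9, which binds a nucleotide at the junction of the arms, had 4.56 and 3.50 at rank 83.5. Ndufa6 had 3.96 and 4.23 at rank 81.4, with its center 598 bp upstream of the TSS. Ndufab1, the mitochondrial acyl carrier protein, had 4.08 and 3.23 at rank 76.4. For these 4 genes and for Ndufc1 (3.005 and 3.92) and Ndufb11 (2.85 and 3.87) the rank was above the median of the members. Ndufa11, with 3.61 and 2.69, stood at that median.

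The other 6 accessory subunits with a peak had ranks from 2.19 to 47.5. Ndufa5 had 2.84 and 3.20, Ndufa10 had 2.75 and 2.96, Ndufa7 had 2.67 and 2.69, and Ndufa13, also known as GRIM-19, had 2.75 and 2.73. The peak of Ndufa13 was centered 869 bp downstream of its TSS, the longest distance among members, where the promoters of Tssk6 and Yjefn3 overlap it. Ndufb8 had 2.23 and 2.14 and Ndufb9 2.34 and 1.73, and both ranked in the lowest 5% of the LSD1 list at 3.56 and 2.19.

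Assembly factors had an LSD1 promoter peak in 3 of 8 genes, and subunits in 18 of 36. Ndufaf3, which acts early with Ndufaf4 in the assembly of the matrix arm, had a fold enrichment of 3.14 and 5.38 at rank 88.8. Ndufaf5, which hydroxylates an arginine of Ndufs7, had 3.24 and 2.60 at rank 49.9. Ndufaf6 had 2.54 and 1.99 at rank 17.01. No LSD1 promoter peak was listed at Ndufaf1, Ndufaf2, Ndufaf4, Ndufaf7 or Ndufaf8. By position in the complex the counts were 10 of 16 for genes of the matrix arm and 7 of 19 for genes of the membrane arm, with Ndufab1, which is found in both arms, left out. Among 10 assembly factors without the Nduf name 2 had an LSD1 promoter peak, Acad9 and Timmdc1.

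Several members share their promoter with another gene, which a promoter peak cannot be assigned between. The TSS of another protein-coding gene on the opposite strand lay within 1000 bp upstream of 18 members (39.1%), against 15.2% of marked genes. The promoter windows of 22 members (47.8%) overlapped those of another gene, against 21.04% of marked genes. The LSD1 peak lay in such a shared stretch for 8 of the 21 members. The nearest such neighbors included Rbm10 for Ndufb11 and Eef1b2 for Ndufs1, both with TSSs 3 bp apart, Rps28 for Ndufa7 at 10 bp and Tatdn1 for Ndufb9 at 26 bp. Among the 24 members that shared no promoter, 12 (50%) had an LSD1 peak, against 36.4% of marked genes without a shared promoter.

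H3K4me2 was listed at the promoters of all 46 members in control liver and of 44 in LSD1-LKO liver. Of all protein-coding genes 58.8% had a control entry and 58.9% an LSD1-LKO entry. In marked genes, which by definition have an entry in at least 1 list, the shares were 94.9% and 95.0%. The 2 members marked in the control list only were Ndufa7 and Ndufa4l2, or 4.35% of members against 4.99% of marked genes. No member was marked in the LSD1-LKO list only, against 5.14% of marked genes. The strongest control peak of each member had a median rank of 79.7, against 81.7 in marked genes, and in the LSD1-LKO list the medians were 78.3 and 82.2.

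Ndufa7, an accessory subunit of the matrix arm, had no listed mark left in LSD1-LKO. H3K4me2 covered 1897 and 1994 bp of its 2001 bp promoter in the control libraries and 0 bp in both LSD1-LKO libraries. The control list held a pair of first-listed peaks there with a fold enrichment of 5.39 and 4.48, both overlapping a second-listed peak of 7.58, and the nearest LSD1-LKO entry began 3632 bp from the TSS. The same promoter serves Rps28, a ribosomal protein gene on the other strand. Ndufa4l2, a paralog of Ndufa4 known to be induced by hypoxia, had 150 and 134 bp in control, against no entry and so 0 bp in LSD1-LKO. Those bases were the end of a control peak that lay mostly beyond the promoter, and the nearest LSD1-LKO entry began 1432 bp from the TSS, and when promoters reached 2 kb from the TSS Ndufa4l2 was marked in both lists.

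**Figure D2:**
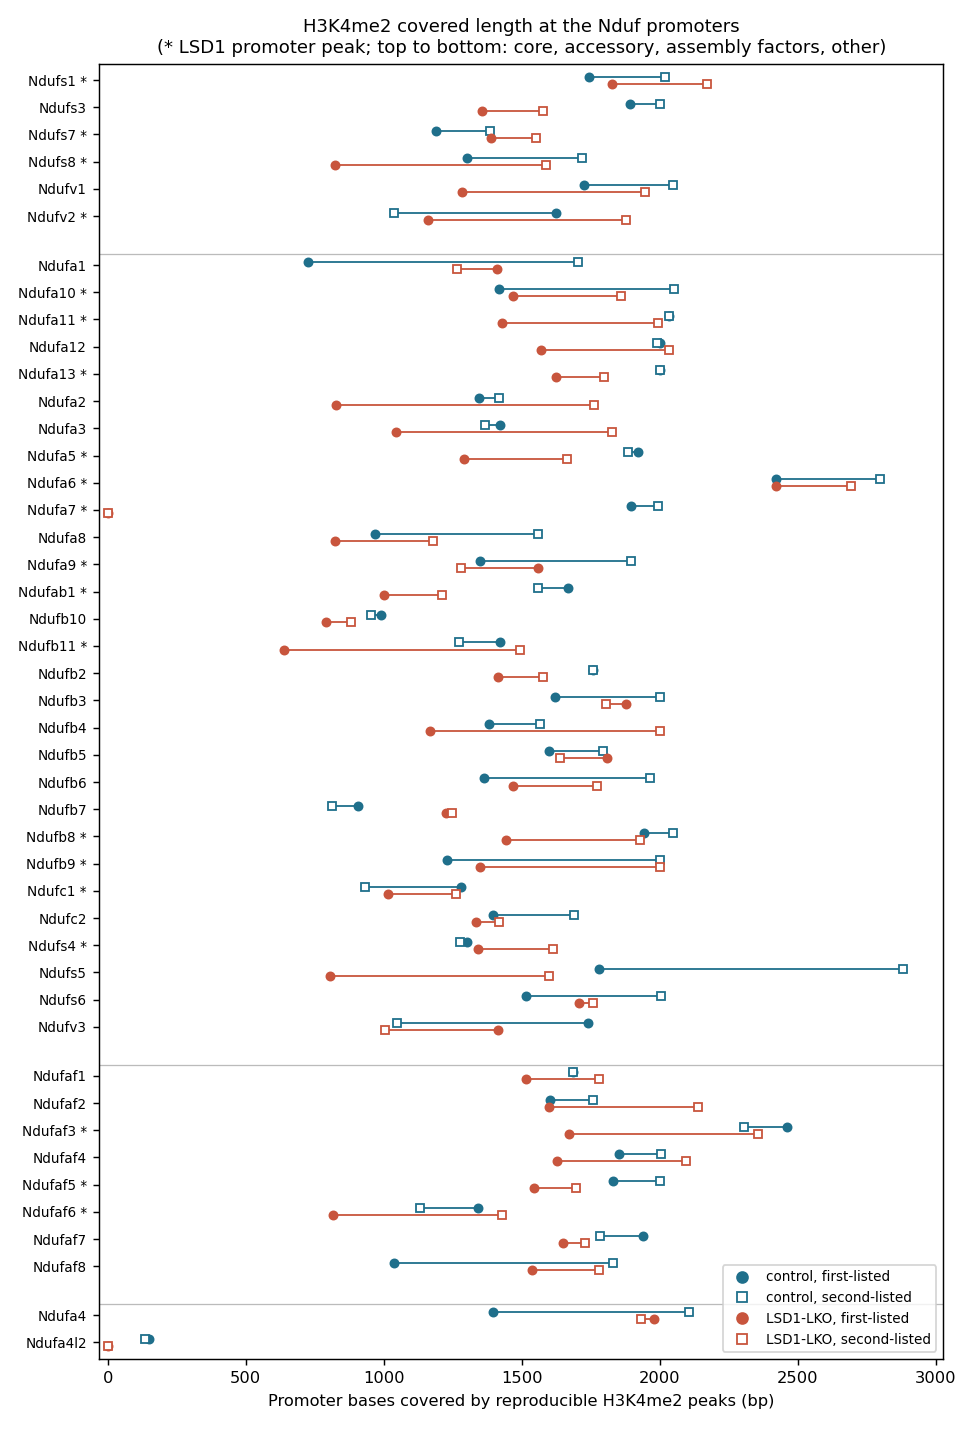
Promoter bases covered by H3K4me2 peaks (horizontal axis, bp) for 45 of the 46 members, with control libraries in blue and LSD1-LKO libraries in red, filled circles for the first-listed and open squares for the second-listed library, and a line between the 2 libraries of a group. Asterisks mark members with an LSD1 promoter peak. Both LSD1-LKO libraries lie below both control libraries for 13 members and above them for Ndufb7, Ndufs4 and Ndufs7. Ndufa7, without an LSD1-LKO entry, is drawn at 0 bp for both.

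The covered length was shorter in LSD1-LKO for most members in the first-listed and in the second-listed pair of libraries, but the direction of the median depended on which libraries were paired. The median over members was 1589 and 1789 bp in the first- and second-listed control libraries and 1399 and 1744 bp in the LSD1-LKO libraries. The median change per gene was −244 bp between first-listed libraries and −86.5 bp between second-listed ones, against −111 and 12 bp in marked genes. It was lower in 31 of 46 members (67.4%) by the first-listed pair, against 60.1% of marked genes, and in 28 (60.9%) by the second-listed pair, against 42.1%. The labels do not pair the libraries. Set against the control library of the other position, the first-listed LSD1-LKO library gave a median change of −366 bp and the second-listed one 139.5 bp, against −347 and 267 bp in marked genes. With promoters of 500 bp on either side the median change of the first-listed pair was −55 bp in members and −52 bp in marked genes, and when bases covered in either library were counted it was −65.5 bp against 0 bp.

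**Figure D3:**
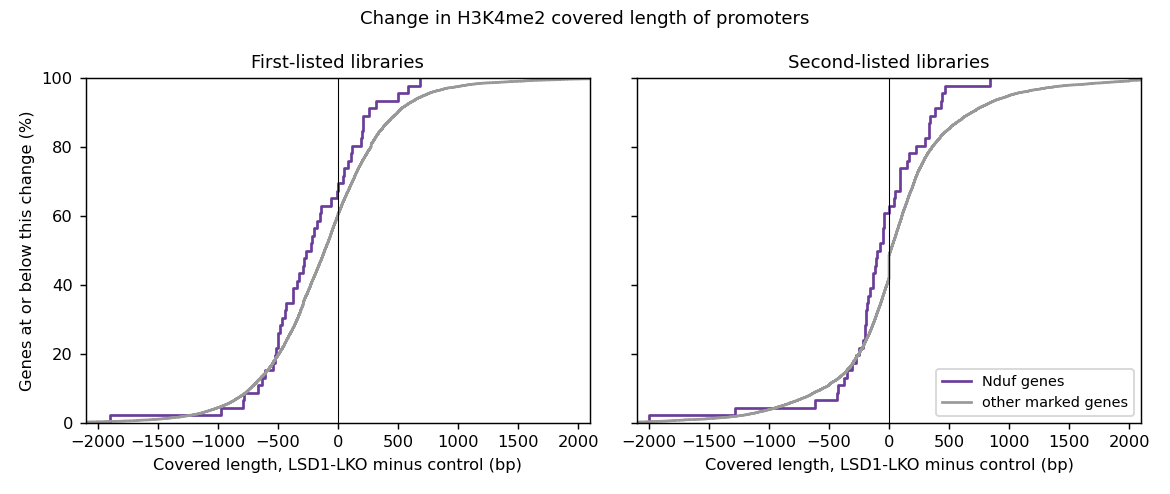
Cumulative share of genes (vertical axis, %) by the change in promoter covered length from control to LSD1-LKO (horizontal axis, bp) for the 46 members (purple) and the other marked genes (gray), with first-listed libraries on the left and second-listed libraries on the right. The curve of the members lies to the left of the other curve over most of its range, with medians of −244 and −86.5 bp.

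Both LSD1-LKO libraries lay below both control libraries in 13 of 46 members (28.3%), against 17.3% of marked genes, and above both in 3 (6.52%), against 14.6%. In the other 30 members the libraries of the groups overlapped. The 13 were Ndufs3, Ndufa5, Ndufa7, Ndufa11, Ndufa13, Ndufab1, Ndufb2, Ndufb8, Ndufb10, Ndufs5, Ndufaf5, Ndufaf7 and Ndufa4l2. With promoters of 500 bp on either side they were 8 (17.4%), against 15.1% of marked genes. With a gap of at least 100 bp between the groups 9 members (19.6%) lay below, against 12.3% of marked genes, and 1 (2.17%), Ndufb7, above, against 10.9%. In Ndufa7 and Ndufa4l2 the missing entry sets both LSD1-LKO libraries to 0 bp at once, so their 2 libraries do not agree separately. The same can hold for marked genes listed in 1 genotype only. Members and marked genes differed at the start. All members had a control peak, whereas 5.14% of marked genes were listed in LSD1-LKO only. The median share of the promoter covered in the control libraries was 68.4% and 82.7% in members, against 49.7% and 61.0% in marked genes. A promoter that is fully covered in control cannot gain. The part of this in the comparisons with marked genes was not tested.

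After Ndufa7 the longest loss among the members whose groups did not overlap was at Ndufs5, a subunit of the membrane arm. Its covered length was 1778 and 2882 bp in control and 806 and 1599 bp in LSD1-LKO. The promoter of Ndufs5 spanned 3877 bp, against a member median of 2058.5 bp, which leaves more room for a loss in bp. Ndufab1 had 1668 and 1558 bp in control and 1001 and 1211 bp in LSD1-LKO. Ndufa5 had 1922 and 1884 bp in control and 1290 and 1665 bp in LSD1-LKO. In each of these genes the groups were at least 179 bp apart. Ndufa11, whose promoter was covered completely in control at 2032 and 2032 bp, had 1428 and 1992 bp in LSD1-LKO, and its second-listed library was only 40 bp shorter.

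The 3 members with longer coverage in LSD1-LKO were of both arms. Ndufb7, a subunit of the membrane arm, had 907 and 811 bp in control and 1224 and 1248 bp in LSD1-LKO. Ndufs7 had 1191 and 1384 bp in control and 1388 and 1552 bp in LSD1-LKO. Ndufs4, with the highest ranking LSD1 peak, had 1301 and 1276 bp in control and 1343 and 1612 bp in LSD1-LKO. The smallest gap between groups was 4 bp at Ndufs7 and 42 bp at Ndufs4.

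Of the core subunits 1 of 7 lay lower and 1 higher in both LSD1-LKO libraries. Ndufs3, a subunit of the part of the matrix arm that passes electrons to ubiquinone, had 1892 and 2001 bp in control and 1355 and 1575 bp in LSD1-LKO. Ndufs7 was the higher one. For the other 5 the groups overlapped. Ndufs1 had 1742 and 2020 bp in control and 1825 and 2171 bp in LSD1-LKO. Ndufs8 had 1303 and 1718 against 825 and 1588 bp, and Ndufv1 had 1724 and 2048 against 1283 and 1948 bp. Ndufv2 had 1624 and 1037 bp in control and 1159 and 1879 bp in LSD1-LKO, and so its 2 library pairs moved in opposite directions.

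The accessory subunits Ndufb3 and Ndufb9, which the study also measured by other assays, overlapped between groups. Ndufb3, in the membrane arm, had 1620 and 2001 bp in control and 1876 and 1804 bp in LSD1-LKO. Ndufb9 had 1230 and 2001 bp in control and 1347 and 2001 bp in LSD1-LKO. Of all 29 accessory subunits 9 lay lower and 2 higher in both LSD1-LKO libraries.

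Of the 8 assembly factors 2 lay lower in both LSD1-LKO libraries and 0 higher. Ndufaf5 had 1830 and 2001 bp in control and 1546 and 1696 bp in LSD1-LKO. Ndufaf7, an arginine methyltransferase, had 1940 and 1783 bp in control and 1650 and 1730 bp in LSD1-LKO. Ndufaf1, which helps to build the membrane arm, had 1685 and 1685 bp in control and 1514 and 1780 bp in LSD1-LKO. In this gene and the remaining 5 the groups overlapped.

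Ndufaf2, a relative of Ndufa12 that acts late in assembly, had 1603 and 1759 bp in control and 1597 and 2140 bp in LSD1-LKO. Ndufaf3 had 2459 and 2305 against 1671 and 2356 bp, and Ndufaf4 had 1852 and 2006 against 1626 and 2094 bp. Ndufaf6 had 1341 and 1132 bp in control and 815 and 1430 bp in LSD1-LKO. Ndufaf8, the partner of Ndufaf5, had 1036 and 1831 against 1537 and 1780 bp. By the first-listed pair coverage was shorter in 7 of the 8 factors and by the second-listed pair in 3, and the median changes were −255 and 69.5 bp, against −294 and −112 bp in the 36 subunits. Of the 10 assembly factors without the Nduf name Ecsit lay lower and Dmac1 higher in both LSD1-LKO libraries.

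Listed peaks at member promoters were more often split in LSD1-LKO. By the first-listed libraries 17 of 46 members (37.0%) had more separate H3K4me2 peaks at the promoter in LSD1-LKO than in control and 4 (8.70%) had fewer, against 29.5% and 20.3% of marked genes. In 15 members (32.6%) a promoter with 1 control peak had several in LSD1-LKO, against 18.8% of marked genes, and in 2 (4.35%) several became 1, against 11.8%. At Ndufaf1 a peak of 1685 bp stood in control and 3 peaks of 336, 545 and 765 bp in LSD1-LKO. By the second-listed libraries, whose peaks were wider, 10 members had more peaks and 5 fewer, against 14.3% and 13.4% of marked genes. At Ndufaf1 the second-listed LSD1-LKO library had 1 peak of 2371 bp.

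In the first-listed libraries fewer member TSSs lay under H3K4me2 in LSD1-LKO. The most upstream TSS lay under a control peak in 28 of 46 members (60.9%) and under an LSD1-LKO peak in 17 (37.0%), whereas in marked genes the shares were 61.2% and 53.3%. At 500 bp downstream the member counts were 40 (87.0%) and 36 (78.3%), against 74.8% and 70.5% of marked genes. At 500 bp upstream they were 32 (69.6%) and 29 (63.0%), against 52.4% and 49.1%. In the second-listed libraries the TSS was covered in 34 members in control and 32 in LSD1-LKO, and in marked genes the shares were 76.4% and 76.1%. The positions under an LSD1 peak in the most members lay 70 to 50 bp upstream of the TSS, each with 12 members (26.1%). The TSS itself was close to this, with 11 members (23.9%). In marked genes the highest share was 23.1% at 70 bp downstream, and at the TSS it was 22.2%.

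**Figure D4:**
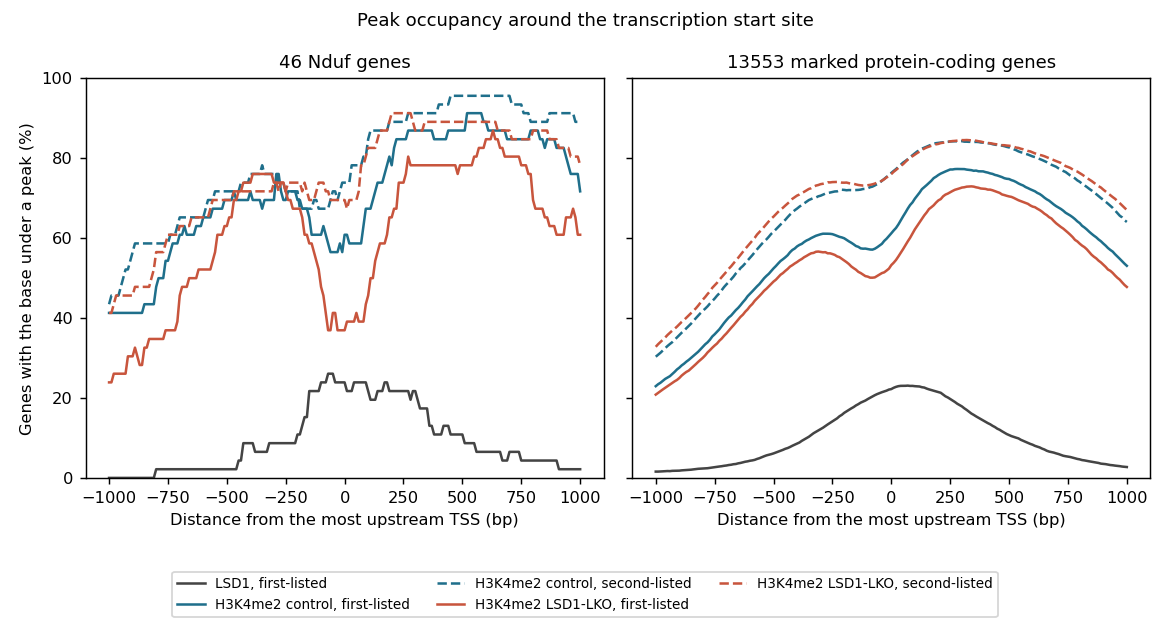
Share of genes (vertical axis, %) in which a base lies under a listed peak, by distance from the most upstream TSS (horizontal axis, bp), for the 46 members on the left and the 13553 marked genes on the right, with LSD1 in dark gray, control H3K4me2 in blue and LSD1-LKO H3K4me2 in red, solid for first-listed and dashed for second-listed libraries. At the TSS of members the first-listed curves stand at 60.9% in control and 37.0% in LSD1-LKO, and the second-listed curves at 73.9% and 69.6%.

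LSD1 promoter peaks of members overlapped H3K4me2 peaks, for which 1 bp was enough. In the first-listed control library 5.93% of the LSD1 peak of Ndufs1 and 10.2% of that of Ndufs8 lay under H3K4me2, against a member median of 100%. All 21 LSD1 promoter peaks of members overlapped a control H3K4me2 peak, as did 93.0% of the LSD1 promoter peaks of marked genes, and 19 (90.5%) overlapped an LSD1-LKO H3K4me2 peak by the first-listed intervals, against 91.5%. The 2 without were those of Ndufa7 and Ndufa13. The share of each LSD1 peak under H3K4me2 was a measure added after the covered lengths had been seen. By the first-listed libraries it was lower in LSD1-LKO for 14 of 21 members (66.7%), against 43.2% of the LSD1 promoter peaks of marked genes. By the second-listed libraries it was lower for 8 (38.1%), against 16.8%.

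Both LSD1-LKO libraries lay below both control libraries in this share for 7 of 21 members (33.3%), against 7.92% of LSD1 promoter peaks of marked genes, and above both for 1 (4.76%), against 6.35%. At Ndufa7 the LSD1 peak was 64.6% and 100% under H3K4me2 in control, against 0% in LSD1-LKO, where the missing entry sets both libraries to 0%. At Ndufa13 it was 100% in both control libraries, 0% in the first-listed and 39.9% in the second-listed LSD1-LKO library. At Ndufaf5 it was 100% in both control libraries and 48.8% and 45.4% in LSD1-LKO. These 3 genes share the stretch with a neighbor, and without members that share a promoter the count was 3 of 12 (25%), against 7.76% of marked genes.

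Those 3 were Ndufab1, Ndufs7 and Ndufv2. At Ndufv2 the LSD1 peak was 100% covered in both control libraries and 40.4% and 84.7% in LSD1-LKO. At Ndufab1 it was 100% in both control libraries and 28.8% and 90.7% in LSD1-LKO. At Ndufs7, whose promoter as a whole was covered longer in LSD1-LKO, the control libraries had 63.1% and 92.2% and the LSD1-LKO libraries 45.2% and 33.7%. Ndufa5, which also shares the stretch with a neighbor, Asb15, completes the 7. It had 100% in both control libraries and 76.9% and 82.3% in LSD1-LKO. The exception in the other direction was Ndufs8, where the control libraries had 10.2% and 21.4% and the LSD1-LKO libraries 42.9% and 57.1%. At Ndufs4, Ndufa6, Ndufa11 and Ndufb8 all 4 libraries covered the LSD1 peak completely.

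**Figure D5:**
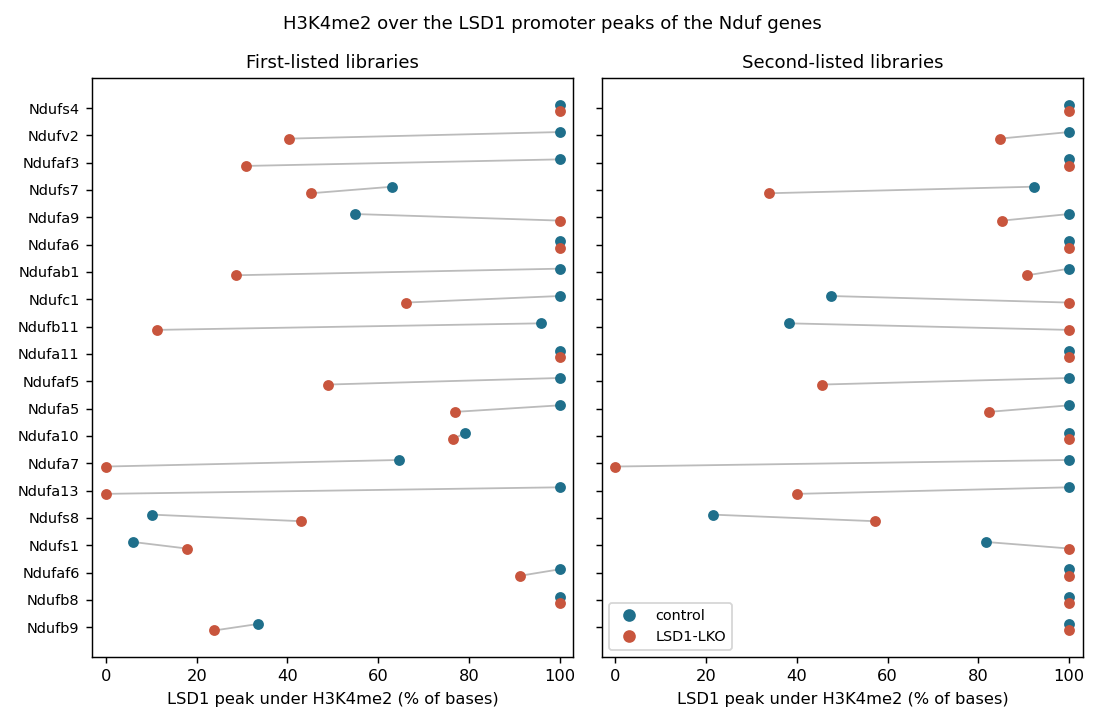
Share of the bases of each LSD1 promoter peak that lie under H3K4me2 peaks (horizontal axis, %) in control (blue) and LSD1-LKO (red), with first-listed libraries on the left and second-listed libraries on the right, for 20 of the 21 members ordered by LSD1 rank, and a gray line between the groups. The share falls in both panels for Ndufa5, Ndufa7, Ndufa13, Ndufab1, Ndufaf5, Ndufs7 and Ndufv2 and rises in both for Ndufs1 and Ndufs8.

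Members with and without an LSD1 peak were set beside each other for the covered length of the whole promoter. Of the 21 with an LSD1 peak 7 (33.3%) lay lower in both LSD1-LKO libraries, and of the 25 without 6 (24.0%) did. In marked genes the shares were 14.97% with and 18.7% without an LSD1 peak. The median change of members was −465 and −40.0 bp with an LSD1 peak and −171 and −100 bp without, in the first- and second-listed pair, so the order of the medians was opposite in the 2 pairs. Ndufs3 and Ndufs5 were among the members with shorter coverage and no LSD1 promoter peak.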

How the data were processed

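The data were ChIP-seq peak lists of LSD1 in wild type liver and of H3K4me2 in control and LSD1-LKO liver. Per the methods and the labels, the authors mapped reads to mm10 with Bowtie 2, called narrow peaks per library with MACS against control libraries, and kept the peaks that overlapped between the 2 libraries of a group with BEDtools 2.25.0. The deposited fold enrichment is a ratio, and the deposited −log10 p-values and −log10 q-values are those of MACS. Some listed p-values are above the threshold of 0.01 named in the methods. Replicates were not pooled. The peak names of the first-listed H3K4me2 library of both groups, and not of the second-listed one, carry the name of the duplicate-marking tool Picard. Whether duplicates were handled alike in both libraries is not given in the sources used here, which bears on every comparison of first- with second-listed libraries. The 12 columns of per-library scores and summit offsets were not used.

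Peak intervals were those of the first-listed library unless stated, an overlap of 1 bp counted, and covered length was the union of intervals within the promoter windows of all protein-coding transcripts. No peak lay beyond the chromosome ends of GRCm38, and sequences were read from that assembly. The genes named are the members with an LSD1 peak, with H3K4me2 in 1 list only, the core subunits, the assembly factors, members the study measured by PCR, and the 5 longest losses and gains of coverage with groups apart, of which only 3 were gains. For 1 member the values are not reported here, though it is included in the counts. Members and lists were chosen with earlier results of these data known. Interval functions were tested on simulated data. Calculations used Python 3.11.15 with numpy 2.4.6 and pysam 0.24.0, and figures matplotlib 3.10.9. Since genes are not replicates and each group has 2 libraries, no test was run.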

Additional observations from a re-analysis of the deposited data

How the results depend on the processing

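For the 46 members, 100 values were recomputed under alternatives, 22 of them chosen after seeing the data. Of these values 84 stayed within 1.5 times the main percent or within the spread between libraries. For the median change, −244 bp in the main setting, this spread was a standard deviation of 199 bp. Values from −412 to −55 bp therefore counted as unchanged, so the count of 84 does not show that the size of this change was stable. The percent of members with an LSD1 peak fell to 10.9% at p-values at or below 1e-05 and 13.04% at q-values at or below 0.05. In marked genes it was 10.05% and 11.4%. The percent with H3K4me2 in the control list only, 4.35%, was 2.17% with promoters of 500 bp or 2 kb on either side, with an overlap of 50% of the narrower interval and with TSSs of any transcript type, 2.27% without Ndufa4 and Ndufa4l2, 15.2% at p-values at or below 1e-05 and 10.9% at q-values at or below 0.05. In marked genes this share was 5.78% with promoters of 500 bp, 4.77% with 2 kb and 4.83% with TSSs of any transcript type. It was 15.6% at that p-value threshold and 9.64% at that q-value threshold. The percent of members in the LSD1-LKO list only, 0%, was 10.9% and 4.35% under those thresholds, against 10.2% and 5.96% of marked genes. The percent lower in both LSD1-LKO libraries was 17.4% with promoters of 500 bp, against 15.1% of marked genes. The percent higher, 6.52%, was 13.04% at p-values at or below 1e-05, 12.5% without shared promoters and 2.17% with a gap of 100 bp. Of marked genes 17.7% were higher at that p-value threshold and 10.9% with that gap. For the setting without shared promoters the share of marked genes is not given, so the 12.5% has no value beside it. The median change reversed to 139.5 bp for the second-listed LSD1-LKO against the first-listed control library. The cause of these shifts was not tested.

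Depth is unknown, and lists of peaks found in both libraries cannot show graded signal, so a change in height within a peak is not seen. No paired analysis was possible because the list columns carry no replicate numbers and the results come from no test.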
